A study of Mus musculus with 18 samples.

Results

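The miR-34 family comprises the microRNAs made from 3 hairpins, Mir34a, Mir34b and Mir34c, each of which can release an arm from its 5′ and its 3′ side. Its members were chosen by name, as the rows for mmu-miR-34a-5p, mmu-miR-34b-5p, mmu-miR-34b-3p, mmu-miR-34c-5p and mmu-miR-34c-3p (mmu for mouse, left out from here on), which are 5 of the 1251 microRNA entries measured. Of these 5 arms, 4 were detected in at least 1 library and the same 4 were detected in at least 6 of the 18 libraries and tested, out of 293 tested entries. The study gave SKH-1E Hairless littermates, all female and all lacking functional Hairless protein, repeated ultraviolet irradiation from solar simulators. From each of 6 mice, numbered 2, 3, 7, 8, 9 and 10, it took nonlesional chronically irradiated skin (CHR), papilloma (PAP) and cutaneous squamous cell carcinoma (cuSCC) for small RNA sequencing, with n = 6 libraries a type. Irradiation was shared by every group and, by the paper's account, had ended before the tissue was taken, and unirradiated skin was not analysed here. CHR was photodamaged, inflamed skin by histology, and lesions were bulk tissue judged under the microscope to be mostly tumour.

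The miR-34 genes are direct transcriptional targets of p53, the tumour suppressor that ultraviolet damage activates and that is often mutated in squamous carcinoma. In many tissues their 5p arms lower the output of genes for cell division and survival, among them Cdk4, Cdk6, Ccnd1, Met and Bcl2, and miR-34a is broadly expressed whereas miR-34b and miR-34c, which come from a common primary transcript, are most abundant in testis, brain and ciliated epithelia such as airway. A hairpin usually yields a dominant guide arm and a less abundant passenger arm, and the passenger arms have other seeds and therefore other targets. The state of p53 in these tissues was not analysed here.

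The mature sequences are shown because they set which arms can pair with the same targets and which arms a short read could be mistaken for. They come from RefSeq on GRCm38.p6, are written 5′ to 3′, and have the seed, bases 2 to 8, in capitals:
miR-34a-5p: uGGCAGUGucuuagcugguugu
miR-34b-5p: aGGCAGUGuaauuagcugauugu
miR-34b-3p: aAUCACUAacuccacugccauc
miR-34c-3p: aAUCACUAaccacacagccagg
miR-449a-5p: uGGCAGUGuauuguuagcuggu

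The 5p arms miR-34a-5p and miR-34b-5p shared the seed GGCAGUG with miR-449a-5p and miR-449c-5p, and miR-34c-5p is classed in the same seed family. The mature sequence of miR-34c-5p was missing from the reference used, so its likeness to miR-34b-5p was not compared. How reads matching both of these arms would have been divided is also unknown. Of the arms in this seed family, miR-34a-5p and miR-34c-5p were detected and the others were not. The 3p arms miR-34b-3p and miR-34c-3p shared the seed AUCACUA, and both were detected. These last arms were identical over their first 10 bases and at 17 of 22 positions, and since the published methods do not say how reads that match both were divided, the split between them is uncertain. miR-34a-5p and miR-449a-5p were identical over their first 9 bases and at 15 of 22 positions.

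The hairpins lie at 2 places in the genome (GRCm38.p6). Mir34a lies at chr4:150068454-150068555 on the plus strand, where its last bases overlap an exon of Gm37795, an unclassified transcript on the same strand. Mir34b lies at chr9:51103562-51103645 and Mir34c at chr9:51103034-51103110, both on the minus strand with 451 bases between them. Both are inside the span of Btg4, a protein-coding gene of the plus strand, outside its exons and on its opposite strand.

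Levels are given as deposited, on a log2 scale that started from shares of usable reads in ppm and was then quantile normalised between libraries, and a difference of 1 is a factor of 2. Off the log scale, each library added up to 2.35 to 2.36 times what shares could total, which makes these relative levels. An entry at 3.32, which corresponds to 10 ppm and is the minimum of every library, was taken as undetected. The lowest detected value of a library, which is the upper limit on an undetected arm in it, ran from 3.39 to 5.77 for CHR, from 3.71 to 6.83 for PAP and from 3.32 to 4.50 for cuSCC, and the number of entries detected was 200 to 328, 163 to 281 and 236 to 365. Detection was therefore poorest in PAP, and an arm missing from a PAP library could have stood as high as that limit. All 7 epithelial marker microRNAs, the miR-200 family with miR-203 and miR-205, were detected, and their summed log2 level ran from 17.50 to 18.51 for CHR, from 17.77 to 18.55 for PAP and from 17.50 to 18.54 for cuSCC. The cuSCC library of mouse 10 stood apart from the others of its type: its profile over the tested entries had a mean r of 0.41 with the PAP libraries and -0.12 with the other cuSCC libraries. Results below are given without mouse 10 where that changes a call.

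**Figure D1:**
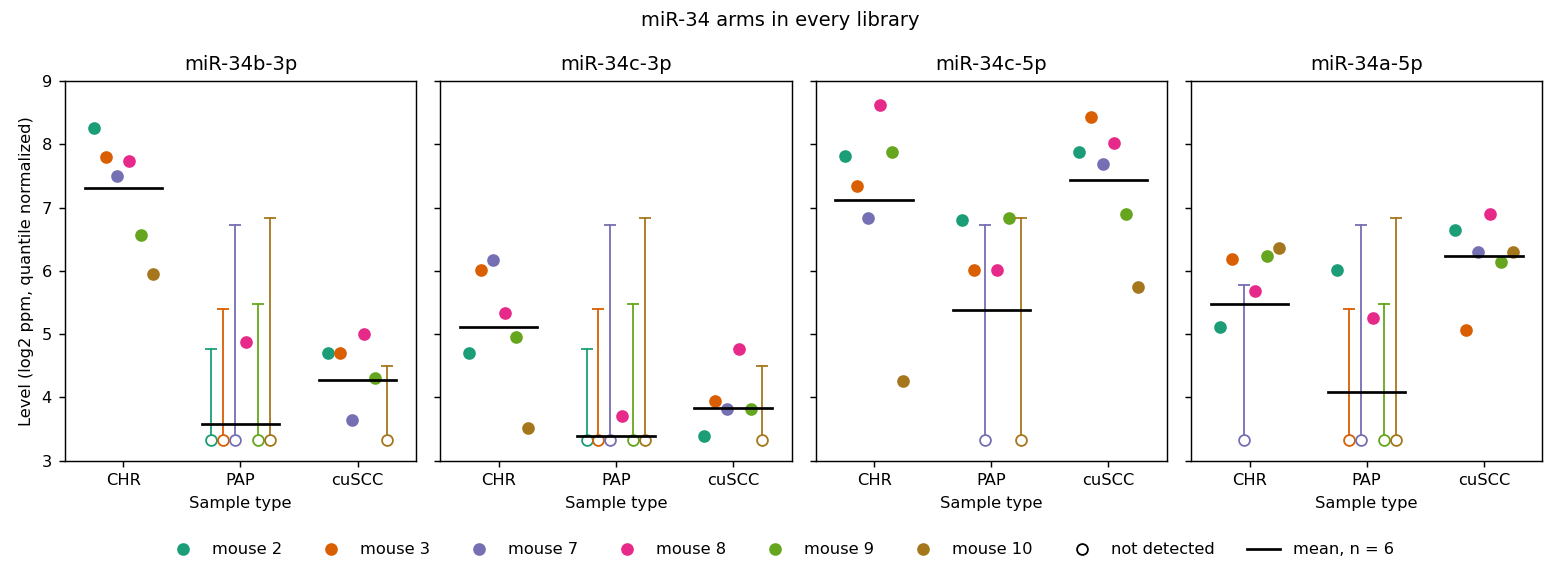
Level of each of the 4 detected miR-34 arms in all 18 libraries (y axis, log2 ppm after quantile normalisation) by sample type (x axis), with 1 colour per mouse and a bar at the mean of 6. Open symbols at 3.32 mark undetected values, and the line above each ends at the lowest detected value of that library. miR-34b-3p lies at 5.96 to 8.25 in CHR and at or below 5.01 in every detected lesion value.

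miR-34b-3p, the 3p arm of Mir34b, was the member that differed most between lesions and irradiated skin. It was lower in PAP and in cuSCC than in CHR. The cuSCC values and limits all lay below the CHR values, whereas PAP lay below CHR as deposited but had limits of up to 6.83, inside the CHR range. In CHR it was detected in 6 of 6 libraries, at 5.96 at the lowest, 7.62 at the median and 8.25 at the highest. In PAP it was detected in 1 of 6 libraries, at 4.88 in mouse 8, and in cuSCC in 5 of 6, with a lowest detected value of 3.64 in mouse 7, a highest of 5.01 in mouse 8 and none in mouse 10. CHR averaged 7.30 ± 0.86 (SD, n = 6), PAP 3.58 ± 0.63 and cuSCC 4.28 ± 0.66. PAP was lower than CHR by a difference of -3.72 on the log2 scale (SE 0.43, 95% interval -4.64 to -2.80, adjusted p = 2.62e-05, limma with Benjamini-Hochberg adjustment over the tested entries). cuSCC was lower than CHR by -3.02 (SE 0.43, 95% interval -3.93 to -2.11, adjusted p = 0.0001, limma). By p-value it was number 11 of 293 entries in the first comparison and number 13 in the second.

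These calls are read against a background in which many microRNAs differed. In PAP against CHR, 95 of 293 entries passed an adjusted p of 0.05 (32.4%), of which 54 were lower (18.4%), and 2 of the 4 tested miR-34 arms were called, both lower. In cuSCC against CHR, 124 passed (42.3%), of which 65 were lower (22.2%), and the same 2 arms were called lower. Entries whose 6 lesion values as deposited, with undetected ones at 3.32, all lay below the 6 CHR values made up 9.56% of those tested in PAP and 10.6% in cuSCC, and miR-34b-3p was the 1 member among them in each. The median difference of all tested entries was -0.23 in PAP and 0.11 in cuSCC. Both comparisons use the same CHR libraries and are not independent.

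Within mice, and with an undetected value taken only as below the limit of its library, miR-34b-3p was lower in PAP than in CHR in 5 of 6 mice and could not be ordered in mouse 10, where CHR stood at 5.96 and the PAP limit at 6.83. It was lower in cuSCC than in CHR in 6 of 6 mice. Of all tested entries, 20.8% were lower in at least 5 mice in PAP. In cuSCC, 14.0% were lower in all 6 mice and 27.0% in at least 5. The size of the PAP difference depends on where undetected values are placed: with each set to the limit of its library it was -1.62 (adjusted p = 0.0151, limma), and with values under 100 ppm raised to 100 ppm it was -0.79 (adjusted p = 0.0326). The cuSCC difference was -2.83 (adjusted p = 7.61e-05) and -0.79 (adjusted p = 0.0294) under those settings. Every deposited lesion value, at most 5.01, lay under 100 ppm and was raised to it. The difference at that setting is therefore the same for PAP and cuSCC, reflects the CHR values alone and gives no size for either lesion.

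Markers of some other cells moved alongside miR-34b-3p and others did not. The summed log2 level of 4 skeletal muscle microRNAs was 15.44 to 15.98 in CHR, 4.95 to 12.44 in the 3 PAP libraries with any of them detected, and 5.16 to 14.24 in cuSCC, so that every lesion lay below CHR. Of the 3 that were tested, 3 were lower in PAP and 1 in cuSCC. The summed level of 5 leukocyte microRNAs ran from 13.12 to 14.28 for CHR, from 8.95 to 11.82 for PAP and from 11.13 to 12.59 for cuSCC, and of 4 tested, 2 were lower in PAP, while 1 was higher and 2 were lower in cuSCC. The summed level of 4 fibroblast and smooth muscle microRNAs was 14.26 to 15.01, 11.00 to 13.93 and 12.49 to 15.40 in the same order, and 3 of 4 were lower in PAP and 1 of 4 in cuSCC, although the median sum was 15.11 in cuSCC and 14.54 in CHR. The summed level of 2 endothelial microRNAs was 7.84 to 9.35, 7.53 to 9.004 and 9.26 to 11.17, and both were higher in cuSCC while neither was called in PAP. Of 7 epithelial microRNAs, 4 were higher in PAP and 3 in cuSCC, and none was lower in either. Beside these counts, 14.0% of all tested entries were called higher and 18.4% lower in PAP. In cuSCC these shares were 20.1% and 22.2%, and no marker list was tested as a set. The part of tissue composition in the miR-34 differences was not tested, and in bulk tissue fewer cells of a type and less of a microRNA per cell cannot be told apart. Of the miR-449 markers of ciliated cells, a known source of miR-34b and miR-34c, 0 of 2 were detected in any library. The limits on these undetected markers reached 5.77 in CHR, 6.83 in PAP and 4.50 in cuSCC. Whether ciliated cells were present was not tested.

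miR-34c-3p, the 3p arm of Mir34c with the same seed as miR-34b-3p, was lower than in CHR in both lesion types by the deposited values, with a lower mean than miR-34b-3p in each sample type. Its values in CHR ran from 3.52 in mouse 10 through a median of 5.15 to 6.17 in mouse 7. In PAP it was detected in 1 of 6 libraries, at 3.71 in mouse 8, and in cuSCC in 5 of 6, at 3.38 to 4.76. The cuSCC values overlapped with those of CHR, and the limits of the 5 PAP libraries without it, 4.77 to 6.83, all lay above the lowest CHR value. CHR averaged 5.12 ± 0.97 (SD, n = 6), PAP 3.39 ± 0.16 and cuSCC 3.84 ± 0.52. The difference was -1.73 in PAP (SE 0.40, 95% interval -2.59 to -0.87, adjusted p = 0.00568, limma) and -1.28 in cuSCC (SE 0.43, 95% interval -2.19 to -0.36, adjusted p = 0.0288, limma).

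Neither call for miR-34c-3p was stable. In PAP the difference rested on undetected values, and with these at the limit of their library it turned to 0.37 (adjusted p = 0.593, limma). Within mice, miR-34c-3p could be ordered between PAP and CHR in only 2 of 6, mice 3 and 8, and was lower in PAP in both. In cuSCC it was lower than in CHR in 5 of 6 mice and could not be ordered in mouse 10, but the call was lost without any 1 of mice 2, 3, 7 or 9, with adjusted p up to 0.0962, and in the exact permutation test (adjusted p = 0.0634).

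miR-34c-5p, the guide arm of Mir34c, was the most abundant member in PAP and in cuSCC by its mean and did not pass the test in any comparison. It was detected in 6 of 6 CHR libraries, at 4.26 at the lowest, 7.58 at the median and 8.63 at the highest. In PAP 4 of 6 libraries held it, at 6.02 to 6.83, and in cuSCC all 6 did, at 5.74, 7.78 and 8.43 for the lowest, the median and the highest. The low CHR and cuSCC values both belonged to mouse 10, whose PAP library held none. CHR averaged 7.13 ± 1.52 (SD, n = 6), PAP 5.39 ± 1.64 and cuSCC 7.44 ± 0.97.

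Between cuSCC and CHR, miR-34c-5p differed by 0.32 (SE 0.65, 95% interval -1.07 to 1.70, adjusted p = 0.706, limma), an interval that still allows a difference of more than 1 in either direction. Within mice it was higher in cuSCC in 4 and lower in 2. Between PAP and CHR the difference was -1.74 (SE 0.83, 95% interval -3.54 to 0.06, adjusted p = 0.132, limma). The comparison of PAP with CHR is paired by mouse, and with mouse as a block the same difference passed (adjusted p = 0.0213). miR-34c-5p was lower in PAP than in CHR in 5 of 6 mice, with mouse 10 not ordered, against 20.8% of tested entries lower in at least 5 mice. With undetected values at the limit of their library the difference was -0.59 (adjusted p = 0.403).

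In cuSCC, miR-34c-5p was higher than in PAP by 2.06 (SE 0.72, 95% interval 0.50 to 3.61, adjusted p = 0.0917, limma), which missed the threshold. Among the cuSCC libraries, 5 of 6 lay above every PAP library, the exception being that of mouse 10. Without mouse 10 the difference was 1.98 and passed (adjusted p = 0.0457), and with mouse as a block it had an adjusted p of 0.0549. Within mice, cuSCC was higher than PAP in 5 of 6 and not ordered in mouse 10, and 18.4% of tested entries were higher in at least 5 mice.

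miR-34a-5p, the guide arm of Mir34a and the family's most widely studied member, differed most between PAP and cuSCC. In CHR it was detected in 5 of 6 libraries, at 5.11 to 6.37, and was missing in mouse 7, where the limit was 5.77. In PAP it was detected in 2 of 6, at 6.01 in mouse 2 and 5.25 in mouse 8. In cuSCC all 6 libraries held it, with 5.07 at the lowest, 6.30 at the median and 6.90 at the highest. Both detected PAP values lay inside the cuSCC range, and only the cuSCC of mouse 8, at 6.90, lay above every PAP value and limit. CHR averaged 5.48 ± 1.16 (SD, n = 6), PAP 4.09 ± 1.22 and cuSCC 6.23 ± 0.63.

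miR-34a-5p was higher in cuSCC than in PAP by 2.14 (SE 0.53, 95% interval 0.98 to 3.29, adjusted p = 0.0383, limma). It was the 1 member called among the 4 tested, in a comparison where 34 of 293 entries passed (11.6%), 27 of them higher in cuSCC (9.22%) and 7 lower (2.39%). The median difference of all tested entries was 0.21. This call rested on undetected PAP values: with these at the limit of their library the difference was 0.28 (adjusted p = 0.626), and within mice cuSCC was higher in mice 2, 8 and 9 and not ordered in the other 3. It was also lost without any 1 of mice 3, 7, 8 or 9, with adjusted p up to 0.119, and in the exact permutation test (adjusted p = 0.0945). Markers of some other cells were higher in cuSCC than in PAP too. These were 3 of 3 tested skeletal muscle microRNAs (median difference 2.62), 2 of 2 endothelial (2.22), 2 of 4 fibroblast and smooth muscle (1.71) and 1 of 4 leukocyte microRNAs (1.36). Among the muscle ones, miR-133b-3p and miR-206-3p averaged 3.32 in PAP, so their differences also rested on undetected values. Of 7 epithelial and of 2 tested erythroid microRNAs, 0 were higher and 1 was lower in each list (median differences -0.085 and -1.31). The part of these markers in the miR-34a-5p difference was not tested. Against CHR, miR-34a-5p passed neither test, with a difference of -1.39 in PAP (SE 0.63, 95% interval -2.76 to -0.02, adjusted p = 0.113, limma) and of 0.74 in cuSCC (SE 0.49, 95% interval -0.31 to 1.80, adjusted p = 0.247). The PAP difference turned to 0.056 (adjusted p = 0.915) with undetected values at the limit of their library. Within mice it was lower in PAP in 3, higher in 1 and not ordered in 2, and in cuSCC it was higher than in CHR in 3 and lower in 3.

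The 3p arms separated PAP from cuSCC less. miR-34b-3p differed by 0.70 between cuSCC and PAP (SE 0.38, 95% interval -0.13 to 1.53, adjusted p = 0.252, limma) and miR-34c-3p by 0.46 (SE 0.27, 95% interval -0.13 to 1.04, adjusted p = 0.284). Within mice, each could be ordered between PAP and cuSCC in mouse 8 alone and was higher in the cuSCC there. With undetected values at the limit of their library both differences turned negative and passed the threshold, at -1.20 (adjusted p = 0.0447, limma) and -1.45 (adjusted p = 0.0412), so that the deposited values set no direction here.

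**Figure D2:**
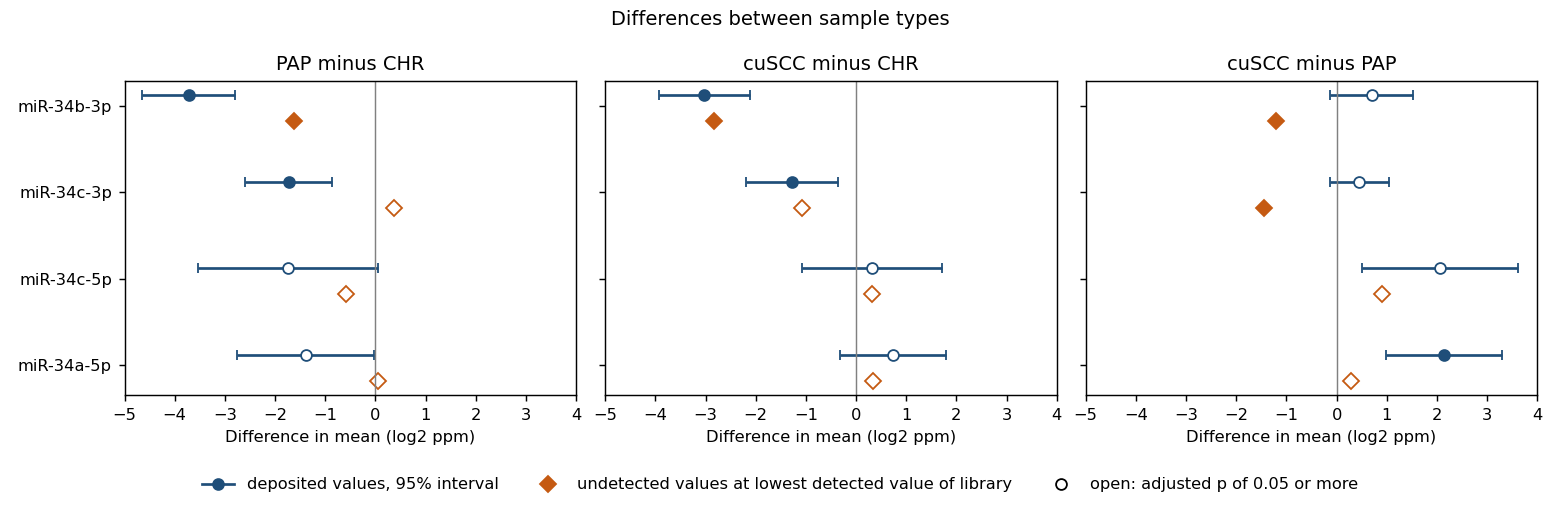
Difference in mean level (x axis, log2 ppm) of the 4 tested arms for PAP minus CHR, cuSCC minus CHR and cuSCC minus PAP, 6 libraries a side. Circles with 95% intervals are from the deposited values, diamonds have undetected values at the limit of their library, and filled symbols have an adjusted p under 0.05 (limma). Only miR-34b-3p keeps filled symbols of 1 sign in both comparisons with CHR, at -3.72 and -1.62 in PAP and at -3.02 and -2.83 in cuSCC.

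miR-34b-5p, whose seed is that of miR-34a-5p, was undetected in all 18 libraries, including the 6 CHR libraries in which miR-34b-3p from the same hairpin reached 5.96 to 8.25. With the limits of the CHR libraries at 3.39 to 5.77, miR-34b-5p as counted lay below miR-34b-3p in each of the 6. These limits do not cover reads of miR-34b-5p that were counted under another entry. miR-34c-5p, of the same seed family, stood at 4.26 to 8.63 in CHR, and whether it took such reads was not tested. miR-34a-3p, the passenger arm of Mir34a, was likewise undetected in all 18, as were the 3 miR-449 arms listed as relatives, miR-449a-5p, miR-449b and miR-449c-5p, and the passenger arms miR-449a-3p and miR-449c-3p.

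The order of the members by mean level differed between CHR and cuSCC. In CHR it was miR-34b-3p at 7.30, miR-34c-5p at 7.13, miR-34a-5p at 5.48 and miR-34c-3p at 5.12, and the neighbours of the first pair and of the second pair lay within 1 SD of each other. In PAP it was miR-34c-5p at 5.39, miR-34a-5p at 4.09, miR-34b-3p at 3.58 and miR-34c-3p at 3.39, with each neighbour again within 1 SD of the larger spread. The PAP order below miR-34c-5p comes from values mostly at the minimum of the table, as mouse 8 alone had both miR-34a-5p and miR-34b-3p detected. In cuSCC it was miR-34c-5p at 7.44, miR-34a-5p at 6.23, miR-34b-3p at 4.28 and miR-34c-3p at 3.84. Neighbours there lay further apart than 1 SD except for the 3p arms. miR-34b-3p thus stood first in CHR and below both 5p arms in cuSCC.

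Because Mir34b and Mir34c come from a common transcript, the arms were also compared within each library, as a description with no test. In CHR, miR-34b-3p minus miR-34c-5p was 0.18 ± 1.10 (SD, n = 6) and ran from -1.30 to 1.70. In cuSCC it was -3.16 ± 0.63 and ran from -4.04 to -2.42, below all CHR values, and with the undetected value of mouse 10 at its limit the highest cuSCC value was -1.24, inside the edge of the CHR range. In PAP it could be read in mouse 8 alone, the 1 library with both arms detected. The difference between these arms of neighbouring hairpins was thus wider in every cuSCC with both detected than in any CHR library.

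The arms of the single hairpin Mir34c showed a smaller shift. miR-34c-3p minus miR-34c-5p was -2.01 ± 1.23 (SD, n = 6) in CHR, from -3.29 to -0.66, and -3.60 ± 0.83 in cuSCC, from -4.49 to -2.42, so that the groups overlapped. The highest cuSCC value came from mouse 10, where miR-34c-3p was undetected. With it at its limit cuSCC was -3.40 ± 1.22, with a highest value of -1.24. Between the 3p arms, miR-34b-3p exceeded miR-34c-3p by 2.19 ± 0.80 in CHR, in 6 of 6 libraries, and by 0.44 ± 0.54 in cuSCC, which includes a 0 from mouse 10 with both arms undetected. Near the lowest value of the table such differences are compressed, since no arm can be recorded below it.

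**Figure D3:**
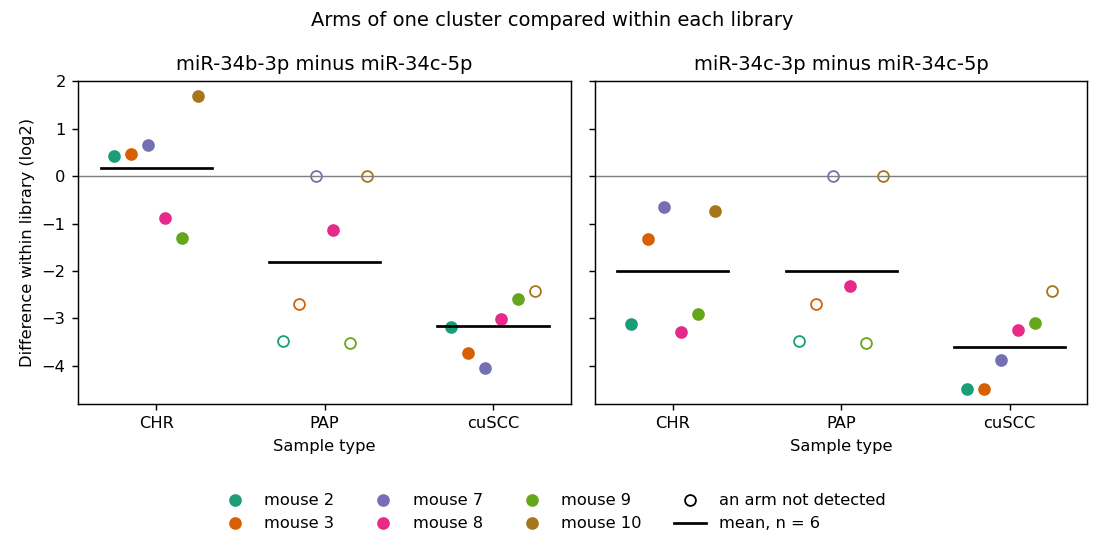
Difference within each library (y axis, log2) between miR-34b-3p and miR-34c-5p and between miR-34c-3p and miR-34c-5p, by sample type (x axis), with 1 colour per mouse, bars at the mean of 6 and open symbols where an arm was not detected. For miR-34b-3p the CHR values lie between -1.30 and 1.70 and the cuSCC values between -4.04 and -2.42.

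Over the 18 libraries, the entries whose levels were most like those of each member were listed by Pearson's r, which follows the sample types that the libraries share. For miR-34b-3p these were miR-5107-5p (r = 0.92), miR-204-5p (0.90), miR-1843b-3p (0.90), miR-218-1-3p (0.88) and miR-34c-3p (0.86). For miR-34c-3p they were miR-5107-5p (0.87), miR-34b-3p (0.86), miR-204-5p (0.80), miR-5107-3p (0.77) and miR-181a-5p (0.76). The 3p arms with the AUCACUA seed thus appeared on each other's list. Both were undetected in PAP of mice 2, 3, 7, 9 and 10 and in cuSCC of mouse 10. Their shared values of 3.32 there enter the r of 0.86, and the split of reads between them is uncertain. miR-5107-5p, first on both lists, was detected in only 9 of 18 libraries.

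The 5p arms had other neighbours. For miR-34c-5p these were miR-199a-3p and miR-199b-3p (both 0.79), miR-434-3p (0.78), miR-181b-5p (0.77) and miR-540-3p (0.76). The miR-199 entries had the same r of 0.7874 and are not read as separate neighbours. miR-199a-3p is on the fibroblast and smooth muscle marker list, and miR-434-3p, miR-181b-5p and miR-540-3p are on no marker list used here. For miR-34a-5p they were miR-340-3p (0.79), miR-134-5p (0.71), miR-212-5p (0.67), miR-142-5p (0.62) and miR-199b-3p (0.61). miR-34c-5p correlated with miR-34c-3p of its own hairpin at 0.49, with miR-34b-3p at 0.45 and with miR-34a-5p at 0.47, whereas miR-34a-5p had an r of 0.21 with miR-34b-3p and 0.12 with miR-34c-3p.

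Other microRNAs that p53 is described to raise, by transcription or by processing, were read from a list of 13, of which 11 were tested. In PAP against CHR, 2 were higher and 2 lower, with a median difference of 0.44 over the 11. Of all tested entries, 14.0% were called higher and 18.4% lower there. miR-200c-3p (1.24, adjusted p = 0.00516) and miR-141-3p (1.58, adjusted p = 0.0181), of the epithelial miR-200 family, rose (limma). miR-145a-5p (-2.83, adjusted p = 0.000452) and miR-143-3p (-1.53, adjusted p = 0.0125), of the smooth muscle and fibroblast cluster, fell (limma). In cuSCC against CHR, 5 were higher and 1 lower, with a median of 0.62, where 20.1% of all were called higher and 22.2% lower. miR-192-5p (1.45, adjusted p = 0.000985), miR-15a-5p (1.99) and miR-16-5p (1.34, both adjusted p = 0.00501) rose (limma). So did miR-22-3p (1.81, adjusted p = 0.006) and miR-141-3p (1.72, adjusted p = 0.0165), whereas miR-145a-5p fell (-1.78, adjusted p = 0.014, limma). In cuSCC against PAP, 2 were higher and 1 lower, where 9.22% of all were called higher and 2.39% lower, with a median of 0.69, namely miR-143-3p (1.98, adjusted p = 0.0402) and miR-22-3p (1.88, adjusted p = 0.0319) against miR-200c-3p (-1.45, adjusted p = 0.0319). Of this list, 4 of the 13 also stand among the epithelial or the fibroblast and smooth muscle markers. Its median was above 0 in both comparisons with CHR, where miR-34b-3p was lower, and the difference between the list and the miR-34 arms was not tested.

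The list of microRNAs described to lower p53 held 7, of which 4 were tested. In PAP against CHR, 1 was higher and 1 lower, where 14.0% of all tested entries were called higher and 18.4% lower. In cuSCC against CHR, 1 was higher and 2 were lower, where 20.1% were called higher and 22.2% lower. miR-25-3p, of the miR-106b cluster, exceeded its CHR level by 1.40 in PAP (adjusted p = 0.00489, limma) and by 0.93 in cuSCC (adjusted p = 0.0238). miR-125a-5p was lower by -1.21 in PAP (adjusted p = 0.0166) and by -1.48 in cuSCC (adjusted p = 0.00234), and miR-125b-5p was lower by -0.95 in cuSCC (adjusted p = 0.0325). The median of the 4 was -0.24 in PAP and -0.67 in cuSCC against CHR and -0.37 in cuSCC against PAP, where none was called by limma.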

How the data were processed

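Small RNA of CHR, PAP and cuSCC from 6 mice was sequenced, giving 18 libraries. The authors trimmed adapters, removed very short reads and those ending in homopolymers, matched the rest to miRBase by BLAST, and took each microRNA as ppm of usable reads. The deposited values are on the log2 scale. Their quantile normalisation and their lowest value of 3.32 (10 ppm) were read from the values, and the labels name mouse build mm10. The depth of each library is unknown, since read totals were not used, and counting error cannot be stated. Quantile normalisation keeps ranks within a library, so levels are relative, and a pseudocount does not apply.

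An entry was detected in a library where it lay above the lowest value. Of 1251 entries, 818 were undetected everywhere, and 293 detected in at least 6 libraries were tested with limma 3.58.1 under R 4.3.3 (moderated linear model, two-sided, 6 against 6 libraries, no block), with Benjamini-Hochberg adjustment over the 293 and a call at adjusted p under 0.05. The test was checked on simulated data. Python 3.11.15, numpy 2.4.6, pandas 2.3.3 and matplotlib 3.10.9 were used for the rest. Mature sequences and hairpin positions are from RefSeq on GRCm38.p6, and neighbouring genes from the GENCODE annotation of the same assembly.

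Library numbers in the labels are those of the mice, which pairs the libraries. For PAP with CHR, deviations of same-mouse libraries from their type means had a mean r of 0.0250 (over 0.1 in 2 of 6 mice), for cuSCC with CHR of -0.0676 (1 of 6) and for cuSCC with PAP of 0.0582 (2 of 6). Labels give no batch.

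Alternatives were detection in at least 3 or 9 libraries or no filter, a fit on all 3 types, mouse as a block, centring of libraries, undetected values at the limit of their library, a lowest value of 100 ppm, an exact permutation test, an unmoderated linear model, and leaving out each mouse. The text names every member, miR-34a-3p, the miR-449 arms, called entries of the p53-linked lists, and the 5 tested entries most correlated with each member. Members and lists were chosen with earlier results of these data known. The marker list not described beside a comparison with CHR held 3 erythroid microRNAs, of which 2 were tested (against CHR, 1 higher in PAP, 1 higher and 1 lower in cuSCC).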

Additional observations from a re-analysis of the deposited data

Results flagged for a closer look

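Within PAP, the library of mouse 8 held the highest value of miR-34b-3p (4.88) and of miR-34c-3p (3.71), and the gap to the other 5 libraries was the whole range of the group, since all 5 were undetected. The same library had the most detected entries of the PAP libraries, 281, and the lowest detection limit, 3.71. Chance marks about 1 in 20 groups of continuous values in this way, a rate that does not hold for 5 tied undetected values, and the part of detection in these values was not tested.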

How the results depend on the processing

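Of 187 values of the members under an alternative, 164 kept their direction and their side of the threshold, 16 lost the call, 3 gained one in the same direction and 4 changed sign. miR-34b-3p kept its call under all 16 alternatives in PAP and in cuSCC against CHR, although at 100 ppm its lesion values were all raised to 1 level. With undetected values at the limit of their library, signs changed for miR-34a-5p (0.056) and miR-34c-3p (0.37) in PAP against CHR and for miR-34b-3p (-1.20) and miR-34c-3p (-1.45) in cuSCC against PAP, the last 2 passing the threshold in the new direction. With mouse as a replicate block, miR-34c-5p in PAP against CHR was called (-1.74), as it was at a lowest value of 100 ppm (-0.82), and the block changed no other call of a member and no count by more than 1.5 times. For miR-34c-3p in cuSCC against CHR, the call was lost with no filter (-1.28), at library limits (-1.08) and in the exact permutation test (-1.28). For miR-34a-5p in cuSCC against PAP, it was lost with no filter (2.14), at library limits (0.28), at 100 ppm (0.045), in the unmoderated model (2.14) and in the exact permutation test (2.14).

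Leaving out each mouse, the differences in PAP against CHR ran from -3.94 to -3.48 for miR-34b-3p, -2.04 to -1.51 for miR-34c-3p, -1.90 to -1.39 for miR-34c-5p and -1.85 to -1.06 for miR-34a-5p. In cuSCC against CHR they were -3.17 to -2.86, -1.49 to -1.06, 0.08 to 0.57 and 0.30 to 1.11, and in cuSCC against PAP 0.56 to 0.84, 0.33 to 0.55, 1.59 to 2.45 and 1.97 to 2.44. The number of entries called ran from 55 to 79 in PAP against CHR (55 without mouse 3, 59 without mouse 7), from 77 (without mouse 3) to 129 in cuSCC against CHR, and from 1 to 59 in cuSCC against PAP: 6 without mouse 2, 1 without each of mice 3, 7 and 8, 9 without mouse 9 and 59 without mouse 10. The last comparison, with 34 calls, also gave 8 with no filter, 80 at library limits, 6 in the unmoderated model and 0 in the exact permutation test, where 75 had an unadjusted p under 0.05 (83 by limma and 78 in the unmoderated model). At 100 ppm, miR-34c-3p in each comparison, miR-34a-5p in PAP against CHR and miR-34b-3p in cuSCC against PAP could not be tested. Causes of these changes were not tested, except that placing undetected values differently alters the values themselves. Depth is unknown, so undetected arms have only the limits of their libraries.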

Other observations

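In CHR, the library of mouse 10 held the lowest miR-34b-3p (5.96), miR-34c-3p (3.52) and miR-34c-5p (4.26) and the highest miR-34a-5p (6.37) of the 6. Ranked by level among all entries of a library, miR-34b-3p stood between 120 and 189 in CHR and between 218 and 280 in the 5 cuSCC libraries that held it, and miR-34c-5p between 110 and 247 in CHR and between 115 and 197 in cuSCC.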
